A study of Mus musculus with 13 samples.

Results

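The PPM family is a group of metal-dependent serine/threonine phosphatases. Expression of 10 of its genes (Ppm1a, Ppm1b, Ppm1d, Ppm1e, Ppm1f, Ppm1g, Ppm1h, Ppm1j, Ppm1k and Ppm1l) was examined among the 25025 genes quantified in mouse hippocampus. Ppm1h and Ppm1l were chosen by their genotype effects, which pointed in opposite directions at 5 and 15 months. Their genotype effects are therefore given as a description, with no test. The other 8 were taken for their family name and were tested with all genes.

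RNA sequencing was performed on hippocampi of mice carrying a gene trap in Tmem184b and of wild type mice, at 2 ages. Mutants were labelled GT/GT, that is with the gene trap on both copies of Tmem184b, the gene of a transmembrane protein of the endosomal pathway. All mice were on the C57BL/6 background, and controls were wild types bred in the same colony, littermates where possible. The groups were 4 wild types and 3 mutants at 5 months, and 3 wild types and 3 mutants at 15 months, 13 mice in all. By the study's methods the wild types at 15 months were all female, whereas each other group held both sexes, so at that age genotype and sex cannot be fully told apart. The sex of each library was not in the labels.

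PPM phosphatases fold into a compact catalytic domain with a pair of metal ions at its centre and, unlike the PPP family, act mostly without separate regulatory subunits. Their substrates are largely protein kinases and kinase targets. Several members switch off stress-activated kinase cascades, whereas others act on Rab proteins, the branched-chain ketoacid dehydrogenase of mitochondria, or nuclear complexes that respond to DNA damage and control transcription elongation. In neurons, family members are known for opposing calcium/calmodulin-dependent and p21-activated kinases, which shape dendritic spines and synaptic plasticity.

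The coding sequence around the metal-binding aspartate is shown for the chosen pair, for the closest relative of Ppm1h, and for Ppm1e and Ppm1f, because these windows show what the family shares and where it divides. Each run is 45 bases of GENCODE M21 coding sequence (GRCm38), read 5′ to 3′ on the gene's own strand, and the 15 bases in capitals encode the aspartate-glycine-histidine stretch that holds the metal-binding residue together with the next 2 amino acids.
Ppm1l: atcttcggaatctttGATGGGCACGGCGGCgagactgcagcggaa
Ppm1h: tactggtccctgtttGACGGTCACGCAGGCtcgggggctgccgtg
Ppm1j: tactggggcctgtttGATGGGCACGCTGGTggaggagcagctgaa
Ppm1e: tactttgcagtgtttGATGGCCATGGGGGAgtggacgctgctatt
Ppm1f: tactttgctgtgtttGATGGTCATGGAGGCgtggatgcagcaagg
The Ppm1l window spans the junction of exons 1 and 2 (chr3:69317933-69497782, plus strand, intron included). The Ppm1h window lies in exon 3 (chr10:122802259-122802303, plus strand), that of Ppm1j in exon 3 (chr3:104783142-104783186, plus strand), that of Ppm1e in exon 4 (chr11:87240729-87240773, minus strand) and that of Ppm1f in exon 5 (chr16:16915178-16915222, plus strand). One such stretch was found in each of the 10 translated coding sequences. Its next residue is glycine in Ppm1d, Ppm1e, Ppm1f, Ppm1g, Ppm1k and Ppm1l and alanine in Ppm1a, Ppm1b, Ppm1h and Ppm1j. Over these 45 bases the other members matched Ppm1l at 21 to 29 positions. Over whole aligned proteins, Ppm1a and Ppm1b were 76.1% identical, Ppm1h and Ppm1j 61.1%, and Ppm1e and Ppm1f 48.1%, whereas Ppm1h and Ppm1l, the chosen pair, shared 31.1% of aligned residues.

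Values are the authors' normalized counts, scaled for library size within each age. Tmem184b, the targeted gene, stood at 2329 to 2475 in the wild types of 5 months and at 31.3 to 45.0 in the mutants, and at 2346 to 2413 against 29.4 to 57.8 at 15 months, as the genotype labels state. Sums of normalized counts were 28086279 to 32383546 per library. These sums follow the scaling, so the sequencing depth is unknown, and no counting error is given. Markers of hippocampal excitatory neurons summed to 282000 to 369000 in the 13 libraries, and none of the 6 was at 0 throughout a group. Markers of choroid plexus, a tissue that borders the hippocampus, set some libraries apart. Their sum was 75600, 3230, 88900 and 167000 in wild types 1 to 4 of 5 months and 721 to 3030 in the mutants, and at 15 months it was 29200 in mutant 3 and 775 to 2220 in the others. In bulk tissue, fewer cells of a type and less RNA per cell cannot be told apart.

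Levels between genes were compared per kilobase of annotated exon. In wild types of 5 months, Ppm1e had the highest level, 740 ± 38.6 normalized counts per kb (SD, n = 4). Ppm1g followed at 558 ± 17.0 and Ppm1f at 544 ± 39.9, which did not differ beyond their spread. Below them stood Ppm1b (380 ± 6.99), Ppm1a (229 ± 14.1), Ppm1k (181 ± 8.30) and Ppm1h (176 ± 4.84), the last pair again overlapping. Ppm1d (84.1 ± 6.54) and Ppm1l (40.6 ± 9.15) were lower, and Ppm1j was near the bottom of the measured range (4.38 ± 2.34). The same 10 ranks were found in the wild types of 15 months, where Ppm1e reached 1110 ± 41.2 and Ppm1l 84.4 ± 2.04 (SD, n = 3). There, Ppm1g, Ppm1f and Ppm1b overlapped with their neighbours in the order, as did Ppm1a, Ppm1k and Ppm1h. In the mutants the order was the same except that Ppm1h stood above Ppm1k at 5 months, with no overlap. Summed over the 10 genes, the level was 2920 to 2950 per kb in wild types and 2960 to 3130 in mutants at 5 months, and 3510 to 3610 against 3050 to 3350 at 15 months. The absence of overlap at 5 months rested on the chosen pair. Without Ppm1h and Ppm1l the wild types of 5 months summed to 2708 to 2734 and the mutants to 2682, 2842 and 2821, which overlapped. The sums of 15 months still did not, at 3197 to 3300 against 2825 to 3111. Ppm1e, the largest part of these sums, stood at 1110 ± 41.2 per kb in those wild types and 830 ± 105 in those mutants (SD, n = 3 each). The means of Ppm1d, Ppm1f and Ppm1g were higher in mutants, so the sums do not show a fall across the members. Ppm1e alone made up 25.2% of the sum over all 10 genes in wild types of 5 months and 31.2% in those of 15 months.

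**Figure D1:**
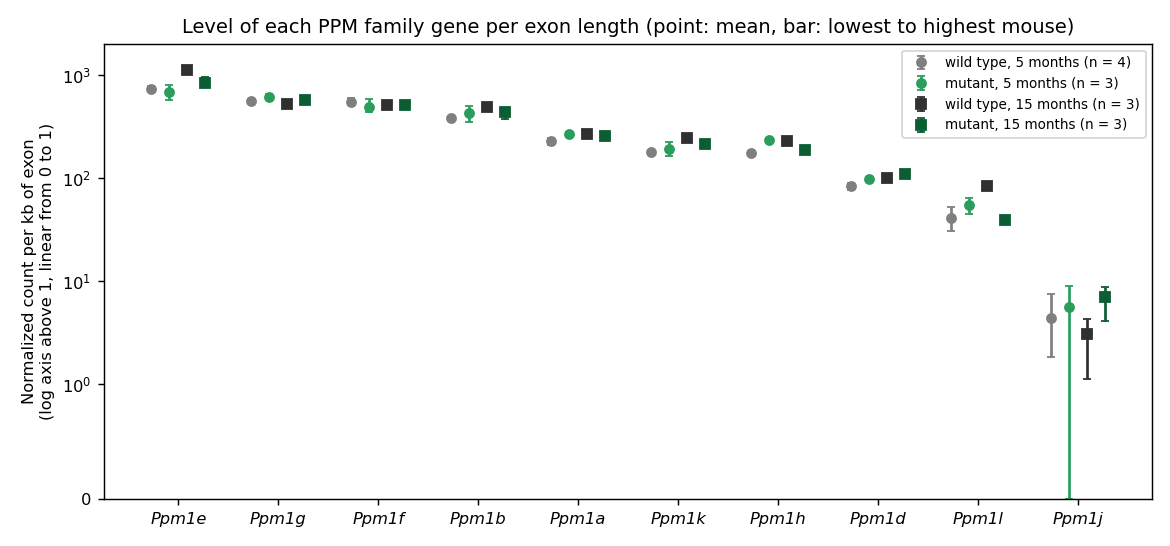
Normalized counts per kilobase of exon (vertical axis, logarithmic above 1 and linear from 0 to 1) for the 10 PPM genes, ordered by their level in wild types of 5 months. Points are group means and bars run from the lowest to the highest mouse. Ppm1e lies at the top in each group and Ppm1j at the bottom, and the mean of Ppm1l runs from 39.4 in mutants to 84.4 in wild types at 15 months.

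Ppm1l (chr3:69316861-69560802, plus strand) encodes a phosphatase anchored in the endoplasmic reticulum membrane that acts on the ceramide transfer protein and on kinases at the head of stress cascades. In wild types of 5 months its normalized counts were 554, 420, 321 and 409, and in the mutants 469, 587 and 672. At 15 months the wild types stood at 869, 910 and 879 and the mutants at 426, 430 and 386. At 5 months the genotypes overlapped, because wild type 1 lay above mutant 1, whereas at 15 months every mutant lay below every wild type. The log2 fold change, on log2(normalized count + 1), was 0.45 (SE 0.18, a fold of 1.36) at 5 months and -1.10 (SE 0.092, a fold of 0.467) at 15 months. The difference of the effects between ages was -1.54 (SE 0.22).

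At 15 months Ppm1l ranked 134th from the lowest of 15541 genes by log2 fold change, and it ranked 831st from the highest of 15563 at 5 months. The tables of the 2 ages were normalized separately, so mice of different ages were not tested against each other. Set side by side, the mean of Ppm1l in wild types was 426 ± 96.0 (SD, n = 4) at 5 months and 886 ± 21.4 (SD, n = 3) at 15 months. In mutants it was 576 ± 102 and 414 ± 24.5 (SD, n = 3 each). The direction between the tables was thus upward in wild types (1.08 on the log2 scale, beside a median of 0.043 over all genes) and downward in mutants (-0.46, beside a median of 0.102).

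Ppm1h (chr10:122678762-122945795, plus strand) encodes a phosphatase of the Golgi region that removes the phosphate set on Rab8a and Rab10 by the kinase LRRK2. At 5 months wild types had 1818, 1768, 1751 and 1860 normalized counts of it, whereas mutants had 2367, 2284 and 2479. The wild types of 15 months stood at 2341, 2283 and 2415, and the mutants at 1883, 1979 and 1936. No mutant overlapped with a wild type at either age, and the mutants were the higher group at 5 months and the lower group at 15 months. The log2 fold change was 0.40 (SE 0.070, a fold of 1.32) at 5 months and -0.28 (SE 0.066, a fold of 0.824) at 15 months. The spread within each group was small, with an SD of 48.2 to 98.0 around means of 1799 to 2377. By size, Ppm1h ranked 1009th from the highest of 15563 genes at 5 months and 2784th from the lowest of 15541 at 15 months, so effects of its size were common, and the difference between ages (-0.68, SE 0.086) ranked 854th from the lowest of 15571.

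**Figure D2:**
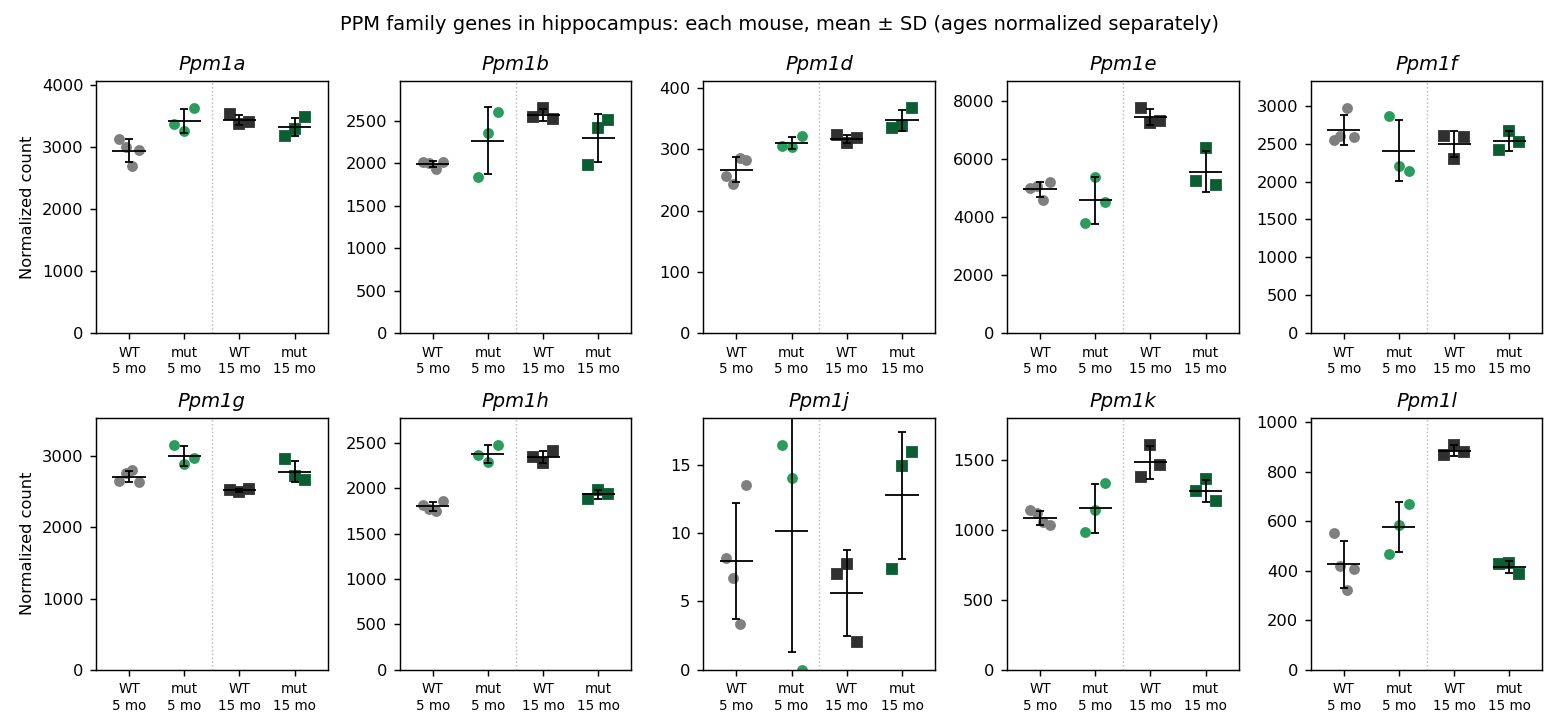
Normalized counts of each PPM gene in each mouse (points), with the group mean and SD (bars), for wild types (WT) and mutants (mut) at 5 and 15 months. Vertical axes start at 0 and differ between genes, and the dotted line parts the ages, which were normalized separately. Ppm1h mutants lie above wild types at 5 months and below them at 15 months, and Ppm1l mutants lie at 386 to 430 at 15 months, below the wild types at 869 to 910.

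Of the 8 genes taken for their name, 7 had a mean of at least 10 normalized counts and were tested with limma. At 5 months none of the 7 passed an adjusted p of 0.05 (1 had an unadjusted p under 0.05), where 2.27% of all tested genes passed (354 of 15563, with 3183 at an unadjusted p under 0.05). At 15 months 1 of the 7, Ppm1e, was called lower (2 of the 7 had an unadjusted p under 0.05), where 6.02% of all tested genes passed (935 of 15541, with 4476 at an unadjusted p under 0.05). The 935 calls at 15 months were 309 higher and 626 lower, and 177 higher and 654 lower after quantile normalization. In the difference between ages none of the 7 passed (2 had an unadjusted p under 0.05), where 1.73% of all tested genes passed (269 of 15571, with 3274 at an unadjusted p under 0.05).

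Ppm1e and Ppm1f encode a pair of phosphatases that act on p21-activated kinases and on calcium/calmodulin-dependent kinases, Ppm1e being known mainly from brain. Ppm1e (chr11:87226906-87359023, minus strand) had 4989, 5056, 4599 and 5206 normalized counts in wild types of 5 months and 3799, 5387 and 4515 in mutants. Wild types had 7753, 7237 and 7323 at 15 months and mutants 5236, 6370 and 5084. The genotypes overlapped at 5 months, where mutants were both the highest and the lowest mice, and did not overlap at 15 months. The fall at 15 months was -0.43 on the log2 scale (SE 0.090, a fold of 0.745, adjusted p = 0.0375 by limma), lower in 3 of 3 mutants, and the effect at 5 months was -0.13 (SE 0.11, adjusted p = 0.529 by limma). The difference of the effects between ages, -0.29, did not pass (SE 0.15, adjusted p = 0.287 by limma), so the effect was not shown to differ between ages. The call at 15 months was lost when wild type 1, 2 or 3 or mutant 1 was left out (adjusted p from 0.118 to 0.136 by limma, log2 fold changes from -0.44 to -0.39). Over all genes these fits called 3, 2, 1 and 11 genes, beside 935 with every mouse kept. Calls were thus lost across the genes and not for Ppm1e alone. The call of Ppm1e was also lost after correction for GC content and length, where the log2 fold change was -0.25 (adjusted p = 0.146 by limma).

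Ppm1f (chr16:16896469-16927364, plus strand) overlapped between genotypes at both ages. The wild types of 5 months had 2546, 2608, 2972 and 2594 normalized counts and the mutants 2872, 2210 and 2138. At 15 months wild types ran from 2297 to 2608 and mutants from 2412 to 2670. The effects of -0.17 (adjusted p = 0.421) and 0.02 (adjusted p = 0.866) did not pass the limma test. In mutant 1 of 5 months Ppm1e was at its lowest and Ppm1f at its highest among the mutants of that age. Wild type 3 of 5 months showed the same relation, with Ppm1e (4599) lowest and Ppm1f (2972) highest among the wild types. The relation was not seen at 15 months. There, wild type 1 was the highest wild type for both genes (Ppm1e 7753, Ppm1f 2608) and wild type 2 the lowest for both (7237, 2297). Mutant 2 was the highest mutant for both (6370, 2670).

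Ppm1a and Ppm1b are close relatives that switch off the p38 and JNK stress kinase cascades, and Ppm1a also acts on SMAD proteins. Ppm1a (chr12:72757455-72799819, plus strand) had 3119, 2997, 2689 and 2941 normalized counts in wild types of 5 months and 3359, 3251 and 3622 in mutants. Every mutant lay above every wild type at 5 months, but the effect of 0.22 (SE 0.077, adjusted p = 0.144 by limma) did not pass. At 15 months the genotypes overlapped, at 3366 to 3521 in wild types and 3177 to 3475 in mutants (log2 fold change -0.05, adjusted p = 0.649 by limma). Ppm1b (chr17:84956741-85023991, plus strand) had 1940 to 2021 in wild types of 5 months and 1841, 2363 and 2606 in mutants, which thus lay on both sides of the wild types. At 15 months its mutants (1978, 2418 and 2512) lay below the wild types (2523 to 2654), by -0.17 on the log2 scale (SE 0.094, adjusted p = 0.266 by limma). The span of a long noncoding RNA on the opposite strand, 1110020A21Rik, overlaps that of Ppm1b. Whether their exons overlap was not examined. Reads from any shared exon sequence could not be told apart if strand was not used.

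Without mutant 1 of 5 months, 1 member passed at that age, Ppm1b (log2 fold change 0.31, adjusted p = 0.0358 by limma). Without the same mouse 3 members passed in the difference between ages, namely Ppm1b (-0.48, adjusted p = 0.0195), Ppm1e (-0.42, adjusted p = 0.0473) and Ppm1k (-0.39, adjusted p = 0.0491), all by limma. Over all genes the same fits called 5.43% at 5 months and 13.5% in the difference between ages, so calls rose across the tables and not in the family alone.

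Ppm1d and Ppm1g act in the nucleus. Ppm1d (chr11:85311244-85347066, plus strand), known as Wip1, closes the p53 response to DNA damage, and Ppm1g (chr5:31202664-31220687, minus strand) takes part in releasing the elongation factor P-TEFb from the 7SK complex. Ppm1d had 243 to 286 normalized counts in wild types and 304 to 322 in mutants at 5 months, and 311 to 323 against 335 to 367 at 15 months. Ppm1g had 2634 to 2806 against 2885 to 3160 at 5 months, and 2497 to 2536 against 2668 to 2954 at 15 months. Both genes thus had every mutant above every wild type at both ages, and were the 2 of 7 tested members to do so, where 3.02% of the 15340 genes tested at both ages did. The effects were small, at 0.22 and 0.13 for Ppm1d (adjusted p = 0.318 and 0.466 by limma) and 0.15 and 0.14 for Ppm1g (adjusted p = 0.261 and 0.205 by limma), and none passed. After correction for GC content and length, Ppm1d stood at 0.24 at 5 months and 0.11 at 15 months (adjusted p = 0.209 and 0.681 by limma). Ppm1g stood at 0.11 and 0.03 (adjusted p = 0.244 and 0.882 by limma), so its effect at 15 months nearly vanished.

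Ppm1k (chr6:57506502-57535468, minus strand) encodes the mitochondrial phosphatase that activates branched-chain ketoacid dehydrogenase. At 5 months its mutants (985, 1138 and 1335) spanned the wild types (1033 to 1138). The mutants of 15 months (1205 to 1362) lay below the wild types (1375 to 1608), with a log2 fold change of -0.21 (SE 0.087, adjusted p = 0.147 by limma). Ppm1j (chr3:104781056-104786018, plus strand), the closest relative of Ppm1h, fell under the minimum mean and was not tested. Its wild types ranged from 3.35 to 13.5 normalized counts at 5 months, where the mutants had 0, 14.0 and 16.5, and at 15 months the ranges were 2.05 to 7.77 against 7.40 to 16.0. At this level the values of single mice ranged over several fold within a group, and no difference was measurable.

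Over the 7 tested members, 5 were higher and 2 lower in mutants at 5 months, with a median log2 fold change of 0.15 beside 0.00025 over all tested genes. At 15 months 3 were higher and 4 lower, with a median of -0.05 beside 0.016. Genotypes did not overlap for 3 of the 7 at 5 months, each time with the mutants above, where 18.5% of all tested genes did not overlap. At 15 months they did not overlap for 5 of the 7, with mutants above for 2 and below for 3, where 34.1% of all tested genes did not overlap. In the difference between ages 6 of the 7 were negative and 1 positive, with a median of -0.27 beside 0.017 over all genes. After correction for GC content and length 5 were negative and 2 positive, with a median of -0.13. These members share their mice, so the counts describe 1 set of libraries and are not independent of each other.

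**Figure D3:**
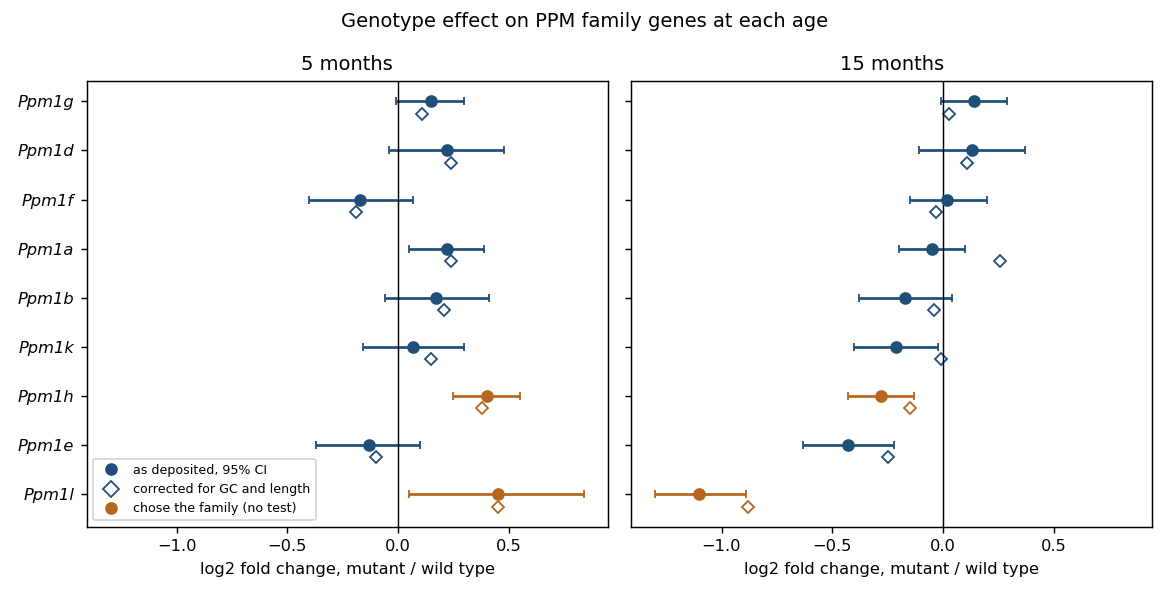
Log2 fold change of mutant over wild type (horizontal axis) for the 9 PPM genes above the minimum mean, at 5 months (left) and 15 months (right). Filled circles are the values as deposited with 95% confidence intervals from limma, and open diamonds are values after correction for GC content and length. Ppm1h and Ppm1l, in brown, chose the family and have no test. At 15 months Ppm1l lies at -1.10 and at -0.88 after correction.

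At 15 months the genotype effect across all genes followed base composition and length. Over 15286 genes its Spearman correlation with the GC content of the longest transcript was 0.514 and with exon length -0.398, against 0.138 and 0.0509 over 15315 genes at 5 months. These are descriptions across genes of the same libraries, and genes are not independent replicates. Ppm1l has 10496 bp of exon sequence, with a 3′ untranslated region of 7628 bp and 47.82% GC, beside medians over tested genes of 4333 bp, 1140 bp and 50.36%. Ppm1a (12829 bp, 43.75% GC), Ppm1k (6022 bp, 39.91%), Ppm1e (6702 bp, 45.00%) and Ppm1b (5251 bp, 44.69%) were also long and low in GC, whereas Ppm1g (4861 bp, 55.22%) and Ppm1f (4922 bp, 53.43%) were GC-rich. Ppm1h was long (10226 bp) but not low in GC (51.31%), and Ppm1d was shorter than the median (3173 bp, 49.12%). After the trend with GC content and length was removed from every library by loess, the 15-month effect of Ppm1l was -0.88 (SE 0.083) and that of Ppm1h -0.15 (SE 0.060). The fall of Ppm1e was no longer called, Ppm1k moved to -0.01 (adjusted p = 0.969 by limma) and Ppm1b to -0.04 (adjusted p = 0.886). Ppm1a changed sign, to 0.26 (adjusted p = 0.166). The effects at 5 months moved little, to 0.45 for Ppm1l and 0.38 for Ppm1h, and the differences between ages became -1.33 and -0.54. The correction left 23 calls of 15286 genes at 15 months, 4 of them higher. Whether base composition and length produced these effects was not tested.

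**Figure D4:**
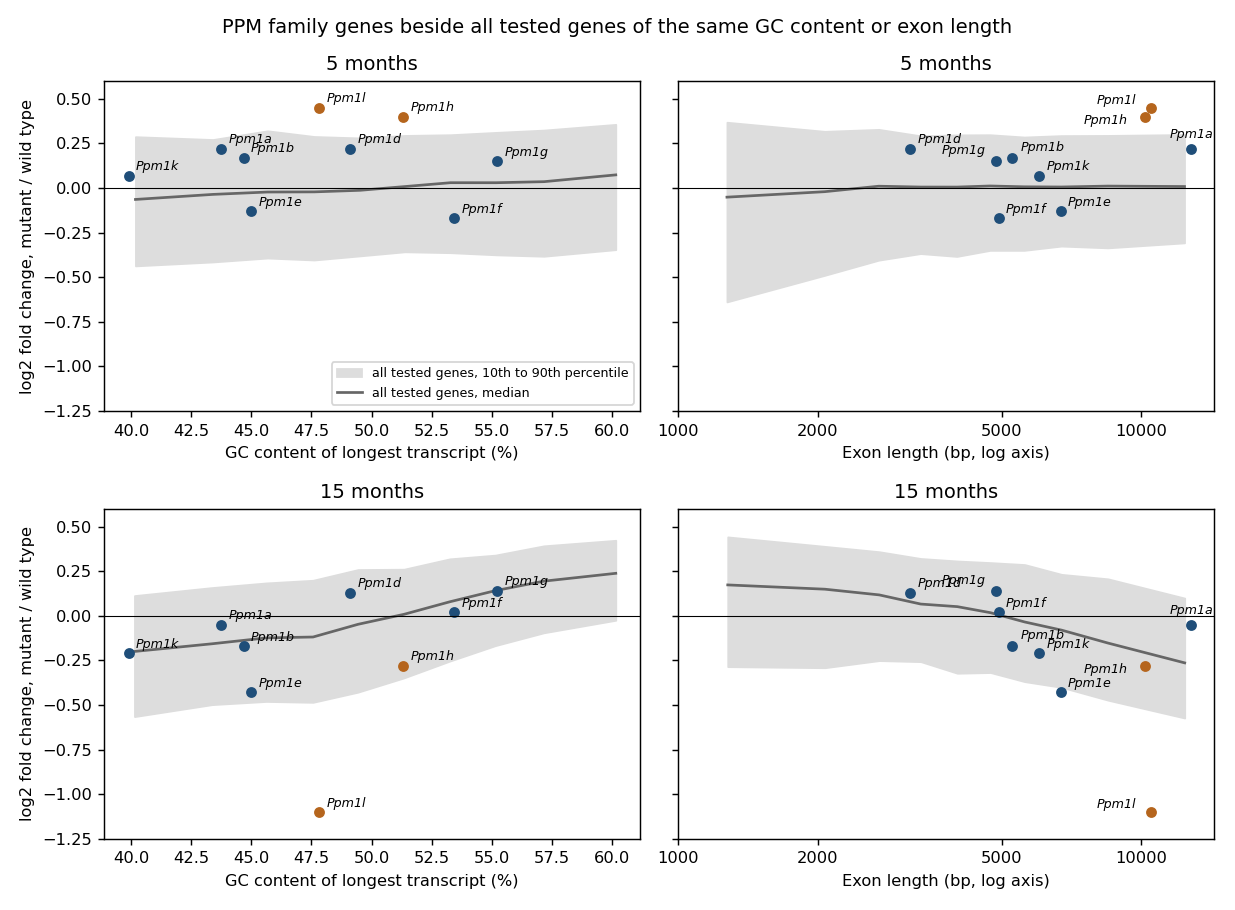
Log2 fold change of mutant over wild type (vertical axis) against the GC content of the longest transcript (left, percent) and exon length (right, base pairs, log axis), at 5 months (top) and 15 months (bottom). The grey line is the median of all tested genes in 10 bins of the feature and the band their 10th to 90th percentile, and labelled points are PPM genes. At 15 months the median rises from -0.20 in the bin lowest in GC to 0.24 in the highest, and Ppm1l lies below the band.

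The effects of the chosen pair were set beside the libraries rich in choroid plexus markers. Without the 3 such wild types at 5 months, which leaves wild type 2 against 3 mutants, the log2 fold change was 0.44 for Ppm1l (SE 0.25) and 0.43 for Ppm1h (SE 0.18), close to the values over all mice. The lone wild type was assumed to vary like the mutants, so this fit cannot decide whether the other members pass. Without mutant 3 of 15 months the values were -1.05 for Ppm1l and -0.28 for Ppm1h, and Ppm1e remained called (-0.36, adjusted p = 0.0265 by limma). In that fit 9.76% of all tested genes were called, beside 6.02% with every mouse kept. Sums of other cell type markers also differed in range between genotypes. At 5 months astrocyte markers summed to 31800 to 35400 in wild types and 40500 to 42800 in mutants, with 1 of 5 called higher, and inhibitory neuron markers to 23000 to 26900 against 17800 to 21800, with 1 of 5 called lower. At 15 months oligodendrocyte markers summed to 154000 to 176000 in wild types and 118000 to 139000 in mutants, with 3 of 5 called lower and a median log2 fold change of -0.56. Excitatory neuron markers summed to 303000 to 331000 in wild types and 340000 to 365000 in mutants of 15 months, with none of the 6 called. At the same age 1 inhibitory neuron marker and 1 microglia marker were called lower and 1 endothelial marker higher, of 5 each, and the sums overlapped between genotypes for inhibitory neurons (24900 to 27100 in wild types, 21100 to 29000 in mutants). None of these markers was at 0 throughout a group. Their part in the PPM values was not tested.

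The wider PPM family held 9 further genes, of which 8 were tested and none passed at either age or in the difference between ages (limma adjusted p from 0.113 at 5 months, 0.0709 at 15 months and 0.152 in the difference). At 5 months 1 of the 8 had an unadjusted p under 0.05, at 15 months 2, and in the difference 4. Over all tested genes these counts were 3183 of 15563, 4476 of 15541 and 3274 of 15571. Phlpp1 and Phlpp2, which dephosphorylate the kinase AKT, were lower in every mutant at 15 months, by -0.32 (SE 0.10, adjusted p = 0.0789 by limma) and -0.38 (SE 0.11, adjusted p = 0.0709). Pptc7, a mitochondrial member, was higher in every mutant at 5 months (0.33, SE 0.10, adjusted p = 0.113 by limma) and stood at -0.04 at 15 months. Genotypes did not overlap for 18.5% of all tested genes at 5 months and for 34.1% at 15 months. Pdp2, which activates pyruvate dehydrogenase, stood at 0.28 and -0.32 with overlap at both ages. Ppm1m, the third relative of Ppm1h and Ppm1j, stood at -0.20 and 0.20. Ilkap, Pdp1 and Tab1 had effects of -0.01 to 0.06 at 5 months and -0.20 to 0.13 at 15 months, and Ppm1n was under the minimum mean. The median of the 8 was 0.00 at 5 months and -0.12 at 15 months.

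The catalytic subunits of the PPP family, the other large group of serine/threonine phosphatases, gave 0 limma calls of 12 at 5 months. Of these, 3 had an unadjusted p under 0.05, beside 3183 of all 15563 tested genes, of which 2.27% were called. At 15 months 1 of 11 was called, where 6.02% of all genes were called. That gene was Ppp1ca, a catalytic subunit of protein phosphatase 1, which rose from 9211 ± 210 to 11200 ± 82.3 normalized counts (SD, n = 3 each, log2 fold change 0.28, adjusted p = 0.0377 by limma). The call was lost after quantile normalization (0.15, adjusted p = 0.182) and after correction for GC content and length (0.12, adjusted p = 0.333). The medians of the list were 0.04 and 0.01, near those of all genes.

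Genes of the pathways in which PPM phosphatases act were counted by list. The 8 lists held 85 tested genes, of which limma called none at 5 months (12 had an unadjusted p under 0.05) and 6 at 15 months (33 had an unadjusted p under 0.05). Over all tested genes, 3183 of 15563 had an unadjusted p under 0.05 at 5 months and 4476 of 15541 at 15 months. The 6 are 7.06% of the 85, near the 6.02% of all genes called at that age, so the lists were not set apart by their calls. The 6 lay in 6 different lists, and 2 lists held none. All 6 were lower in mutants, as were 626 of the 935 genes called at 15 months. Among 15 genes of the stress-activated kinase cascade, on which Ppm1a, Ppm1b and Ppm1l act, Map3k7 (TAK1, a kinase at the head of the cascade) fell by 0.38 on the log2 scale (adjusted p = 0.0415 by limma), and the list's median was -0.17. Among 13 genes of LRRK2 and its Rab substrates, Lrrk2 fell from 418 ± 14.7 to 292 ± 19.6 (SD, n = 3 each, log2 fold change -0.52, adjusted p = 0.0377 by limma), whereas the list's median was 0.16. Among 7 genes of ceramide transfer and endoplasmic reticulum stress, Atf6, a stress sensor of that membrane, fell from 1688 ± 52.2 to 1216 ± 101 (SD, n = 3 each, log2 fold change -0.48, adjusted p = 0.0303 by limma), and the list's median was -0.23.

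In the remaining lists, Smad4, the common partner of SMAD proteins, fell by 0.40 on the log2 scale (1 of 9 genes, adjusted p = 0.0303 by limma). Atr, a DNA damage kinase, fell by 0.63 (1 of 9, adjusted p = 0.0463), and Ccnt2, a cyclin of P-TEFb, fell by 0.80 (1 of 7, adjusted p = 0.0317). The medians of the lists were -0.17 for SMAD signalling, -0.05 for DNA damage and 0.19 for P-TEFb. None of the 17 genes of PAK, PIX and calcium/calmodulin-dependent kinases and none of the 8 genes of branched-chain amino acid catabolism was called at either age by limma, with 3 and 1 at an unadjusted p under 0.05 at 5 months and 6 and 2 at 15 months. Over all tested genes the counts were 3183 of 15563 at 5 months and 4476 of 15541 at 15 months. With the trend in GC content and length removed, none of the 6 genes called in the lists was still called at 15 months (adjusted p from 0.0579 for Smad4 to 0.655 for Atr by limma). The log2 fold change of Smad4 stayed at -0.40, whereas those of the other 5 shrank, to -0.49 for Ccnt2, -0.26 for Atf6, -0.24 for Lrrk2, -0.22 for Map3k7 and -0.19 for Atr. Leaving out wild type 1, 2 or 3 or mutant 1 of 15 months also ended each of these 6 calls and that of Ppp1ca. In the same fits 3, 2, 1 and 11 genes were called over all genes, beside 935 with every mouse kept. The call of Atr was lost without mutant 2 as well.

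Direct partners of the chosen pair were read whether or not they passed. Col4a3bp, the ceramide transfer protein and a target of Ppm1l, stood at 1337 ± 42.2 and 1247 ± 225 at 5 months, and at 1651 ± 48.5 in wild types and 1414 ± 170 in mutants at 15 months, with overlap at both ages (log2 fold changes -0.12 and -0.23, adjusted p = 0.618 and 0.142 by limma). Map3k5 (ASK1), another target of Ppm1l, stood at -0.09 and -0.46 (adjusted p = 0.709 and 0.0633). The Ppm1h targets Rab8a and Rab10 had effects of 0.09 and 0.10 at 5 months and of 0.16 and -0.19 at 15 months, with adjusted p from 0.133 to 0.554 by limma. For Ppm1k, Bckdha stood at -0.03 and 0.16 and its kinase Bckdk at 0.19 and 0.16, none passing (adjusted p from 0.158 to 0.847 by limma). Among kinases opposed by Ppm1e and Ppm1f, Pak1 stood at 0.18 and -0.13, Camk2a at 0.08 at each age and Camk4 at 0.17 and -0.24, with adjusted p from 0.0844 to 0.730 by limma.

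In the difference of genotype effects between ages, 1 of the 85 genes of the 8 pathway lists was called (1.18%). Over all tested genes 1.73% were called, so the lists were not set apart here either. The single called gene was Atf6 (-0.63, SE 0.14, adjusted p = 0.0405 by limma). With that trend removed it stood at -0.43 (adjusted p = 0.0461), and it was lost in 8 of 13 fits that left out 1 mouse (adjusted p from 0.00315 to 0.1). It was also lost without the choroid plexus-rich libraries (-0.73, adjusted p = 0.191 by limma).

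The genes whose pattern was most like the chosen pair were found by Pearson correlation over the 13 libraries, after each age's mean was subtracted, among 15340 genes tested at both ages. For Ppm1l these were Rasgrf2 (r = 0.975), Ctnna2 (r = 0.974) and Mkln1 (r = 0.970). Their log2 fold changes were smaller than those of Ppm1l, at 0.14, 0.07 and 0.23 at 5 months and -0.40, -0.28 and -0.58 at 15 months. For Ppm1h they were Cyfip2 (r = 0.957), Dusp3 (r = 0.954) and Ncan (r = 0.938), with 0.27, 0.22 and 0.30 at 5 months and -0.27, -0.16 and -0.31 at 15 months. Within the family, Ppm1l was closest to Ppm1k (r = 0.756) among the members taken for their name and ran against Ppm1f (r = -0.492), and Ppm1h was closest to Ppm1a (r = 0.805). The correlation between Ppm1l and Ppm1h (r = 0.771) follows from the way the pair was chosen, since both have opposite genotype effects at the 2 ages. All these correlations contain the genotype effects of the chosen pair, rest on libraries that share their normalization and the trend with GC content and length, and are a description.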

How the data were processed

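Gene expression was measured by RNA sequencing (paired-end, Illumina) of 13 mouse hippocampi. Per the labels, the authors quantified reads with Salmon 0.11.1 on mm10 and normalized them with DESeq2. Each age has its own table, and the deposited signal in it is 1 normalized count for every gene and mouse, read through the column's label. Between 46.9% and 76.9% of low values in a library were whole multiples of 1 step (within 0.02), too few to recover reads, and count models were not used. 0 columns belonged to other samples.

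Within an age, mutants were set against wild types in R 4.3.3 by limma 3.58.1 (lmFit, eBayes with trend, two-sided). Values entered as log2(normalized count + 1), genes averaging under 10 were left out, and genes were called at a Benjamini-Hochberg adjusted p under 0.05 over all genes tested. Fold changes on this scale understate those of low genes. The difference of genotype effects was fitted over all 13 libraries. Nothing in the labels says whether replicates were separate litters, so p-values measure the spread between these mice. The test was tested on simulated data. Positions, lengths, GC content and coding sequences came from GENCODE M21 (GRCm38), matched by symbol for 24353 of 25025 genes.

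Members and gene lists were chosen with earlier results of these data known. Named were all members, other PPM genes, up to 3 called genes of each list with the largest change, direct partners, and the 3 genes most like Ppm1l and Ppm1h. Alternatives were pseudocounts of 0.1 and 10, no filter or a mean of at least 100, median rescaling, quantile normalization, robust hyperparameters, a loess correction (span 0.3) for GC content and length, the replicate number as a block, both together and each mouse left out. Leaving out libraries whose choroid plexus markers summed to over 10000 was chosen after seeing the data.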

Additional observations from a re-analysis of the deposited data

Results flagged for a closer look

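Among 10 groups of 4 mice examined (the 10 members in wild types of 5 months), 1 held a mouse far from the others. For Ppm1f, wild type 3 had 2972 normalized counts and the other 3 had 2546 to 2608, so the gap made up 0.853 of the group's range. Chance alone sets apart about 5% of such groups.

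The genotype effects at 5 and 15 months pointed in opposite directions for Ppm1h and Ppm1l, which chose the family. The 15-month minus the 5-month log2 fold change was -0.68 for Ppm1h and -1.54 for Ppm1l, and for both genes this difference was not tested. For Atf6 the genotype effect differed between ages in the limma fit of all 13 libraries, by -0.63 (adjusted p = 0.0405). This call was lost in 8 of 13 fits without 1 mouse (adjusted p from 0.00315 to 0.1 over the 13) and with the replicate number as a block (-0.67, adjusted p = 0.108).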

How the results depend on the processing

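The effects of Ppm1h and Ppm1l kept their direction under every alternative run. Without 1 mouse, Ppm1l ranged from 0.32 to 0.59 at 5 months, from -1.13 to -1.05 at 15 months and from -1.68 to -1.42 for the difference. The corresponding ranges of Ppm1h were 0.37 to 0.43, -0.30 to -0.26 and -0.71 to -0.65. Counts of calls were unstable. Without 1 mouse the calls ranged from 7 to 901 at 5 months, from 1 to 1526 at 15 months and from 33 to 2097 for the difference, and calls among the 7 tested members ranged from 0 to 1, 0 to 1 and 0 to 3. With no filter on low values there were 578 calls at 15 months and 145 for the difference. The correction for GC content and length gave 999 calls at 5 months and 23 at 15 months, with 0 members called at 15 months. Leaving out the libraries rich in choroid plexus markers gave 13 calls at 5 months and 14 for the difference.

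Mice with equal replicate numbers did not deviate together (correlations of same-numbered pairs from -0.0906 to 0.0577 at 5 months and from 0.0133 to 0.164 at 15 months), so the numbers were not taken to pair them. With the replicate block the calls were 9 at 5 months, 1595 at 15 months and 3 for the difference, and with the block and the correction for GC content and length 117, 9 and 55, with 0 members called at 15 months.

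Among the named genes, no effect that passed the test changed sign under the alternatives run. Those that turned had not passed, including Ppm1a for the difference (-0.27) and Col4a3bp at 15 months (-0.23). At 5 months Camk2a stood at -0.07 after quantile normalization, and Map3k7 at 0.02 after the GC and length correction, 0.03 with the block and 0.06 with both. Without the choroid plexus-rich libraries Bckdha stood at 0.06, Lrrk2 at 0.14 and Map3k7 at 0.18. At 15 months the correction gave 0.26 for Ppm1a, -0.03 for Ppm1f, -0.04 for Bckdha and 0.01 for Col4a3bp, with the same values when the block was added, and quantile normalization gave -0.01 for Ppm1f and -0.22 for Camk2a. For the difference, Ppm1a stood at 0.02 after the correction and 0.03 with the block added, and Ppm1g at 0.02 after quantile normalization, 0.01 with the block and 0.05 without the choroid plexus-rich libraries. Without 1 mouse, signs also turned within -0.04 to 0.18 for Ppm1k, -0.02 to 0.15 for Camk2a, -0.01 to 0.31 for Camk4, -0.20 to 0.04 for Col4a3bp, -0.41 to 0.25 for Lrrk2 and -0.08 to 0.05 for Map3k7 at 5 months, within -0.04 to 0.06 for Ppm1f at 15 months and within -0.05 to 0.03 for Ppm1g for the difference. The cause was not tested. The depth of these libraries is unknown, so the counting error of Ppm1j could not be given.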
